A study of Mus musculus with 3 samples.

Results

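Wnt signalling in mouse blastoids was followed through 10 genes, which are 10 of the 32285 genes counted. They are the ligands Wnt3, Wnt6, Wnt7b and Wnt11, the Wnt enhancer Rspo3, the secreted antagonists Dkk1 and Sfrp1, and the response genes Axin2, Lef1 and Rnf43. They were picked by name, with earlier results of these data known, and their levels were compared between cell states within each library. Blastoids are blastocyst-like aggregates of stem cells, and here 3 droplet single-cell libraries were made from them, labelled Type I, Type II and Type III. What sets the types apart is not stated in the labels, and each type has 1 library.

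All 3 libraries came from E14 mouse embryonic stem cells grown with leukemia inhibitory factor and 10 µM T0901317, an agonist of the nuclear receptors that include Nr1h2, and called NrESCs. About 5 cells were placed in each microwell in medium with rhFGF4 (12.5 ng/mL), heparin (0.5 µg/mL) and CHIR99021 (3 µM). The kinase inhibitor Y-27632 (2 µM) was present on the first day only. From day 1 on, 5 ng/mL BMP4 and 0.5 µM A83-01 were added. Blastoids were picked by hand on day 5 and dissociated for 30 min. CHIR99021 inhibits the kinase GSK3 and thereby switches on β-catenin without a ligand. Every library received it, so the effect of the ligands and that of the inhibitor on the response genes cannot be told apart here.

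Wnt ligands bind Frizzled receptors together with Lrp5 or Lrp6, which stops the Axin-containing destruction complex from degrading β-catenin. Stabilised β-catenin then acts with Tcf/Lef proteins on target genes, among them Axin2, Lef1 and Rnf43. R-spondins strengthen the signal by keeping Rnf43 and its relative from removing Frizzled, Dkk1 blocks Lrp5 and Lrp6, and Sfrp1 binds Wnt proteins. In the mouse embryo Wnt3 is needed for the primitive streak, and Dkk1 is made by anterior visceral endoderm.

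A UMI marks 1 captured RNA molecule. Kept were barcodes that held 10000 UMIs or more, of which mitochondrial genes made up no more than 20%, and this left 3669 of 18388. Type I gave 1405 kept barcodes, Type II 1992 and Type III 272, from libraries of 90126648, 106445641 and 25443474 UMIs. A barcode was put into the visceral endoderm state when Ttr, Rbp4, Apoa1 and Apoa2 summed to at least 1000 CPM, counts per 1000000 UMIs of that barcode or, for levels, of the summed barcodes. Failing that, it went to early primitive endoderm (early PrE) when Gata6, Sox17 and Gata4 reached 100 CPM, then to trophectoderm (TE) when Krt8, Krt18 and Krt19 reached 800 CPM, then to epiblast when Pou5f1 reached 150 CPM. This gave 558 TE barcodes (208, 278 and 72 in Types I, II and III), 1025 visceral endoderm barcodes (443, 563 and 19), 692 early PrE barcodes (271, 376 and 45) and 1054 epiblast barcodes (351, 582 and 121). The other 340 barcodes, or 9.27%, met no rule. Barcodes that would miss the threshold if their sum were scaled by 0.8 numbered 74, 27, 45 and 60 for visceral endoderm, early PrE, TE and epiblast, and barcodes outside that reached 0.8 times the threshold numbered 62, 42, 57 and 48.

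The state names were held against genes that the rules did not use. For visceral endoderm, the sum of 5 genes (Afp, Amn, Apob, Apoe and Cubn) was 9797, 10940 and 12518 CPM in visceral endoderm and 5764, 6176 and 5616 CPM in early PrE, so both endoderm states carried it. The sum of the 5 genes was also 1133, 1197 and 1025 CPM in epiblast and at most 1239 CPM in barcodes without a state. Of these genes Afp had 55.2, 77.0 and 25.8 CPM in visceral endoderm and at most 0.990 CPM in every other state, while Cubn was higher in early PrE in every library. For early PrE, the sum of Pdgfra, Lama1, Dab2, Foxa2 and Hnf4a was 1555, 1640 and 1848 CPM in visceral endoderm and 1659, 1620 and 1703 CPM in early PrE, and at most 55.2 CPM elsewhere. This sum did not set the endoderm states apart. The sum of 4 parietal endoderm genes, nearly all Sparc, was 3184, 3084 and 2848 CPM in visceral endoderm and 4024, 3445 and 3354 CPM in early PrE. For epiblast, a sum of 7 genes that include Nanog and Sox2 was 1667, 1797 and 2206 CPM in epiblast and at most 507 CPM elsewhere. For TE, a sum of 10 genes that include Gata3, Rhox6, Rhox9, Sfn and Anxa1 was 1062, 1257 and 1142 CPM in TE and at most 218 CPM elsewhere. The sum was uneven within TE. In the 66, 80 and 18 TE barcodes with more Rhox6 and Rhox9 than Sfn and Anxa1 it was 2482, 3480 and 2761 CPM. In the other 142, 198 and 54, most of TE, it was 418, 452 and 755 CPM. The genes used for this split are themselves in the sum. Of the 10, 3 did not follow the name. Elf5 stayed at 0.475 to 1.01 CPM in TE. Eomes had 1.77 to 2.47 CPM in TE, against 3.64 to 9.49 CPM in epiblast. Cdx2 had 4.82 to 12.5 CPM in TE, against 10.9 to 18.9 CPM in visceral endoderm. TE stands below for keratin-rich barcodes that passed neither endoderm rule.

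Libraries also shared barcode sequences. Type III shared 209 of its barcodes with Type I and 151 with Type II, and Types I and II shared 155. Of the kept barcodes, 161 in Type III (59.2%) occurred in another library, against 26 in Type II (1.31%) and 58 in Type I (4.13%). Each of these kept Type III barcodes had more UMIs in Type III than in the other library. Results that changed when shared sequences were left out are named with their values. The 3 libraries stood in for replicates of each state, although they are of different types and nothing says that they came from separate cultures. Library was a block in the model, so p-values measure how the differences between states varied across these libraries. They do not measure the spread between separate cultures.

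Promoters of the members are shown because the response genes are read as targets of Tcf/Lef proteins, which bind letters of the kind CTTTGAT or CTTTGAA. RefSeq promoters (build GRCm38.p6, 250 bases before to 50 bases after a start) were found for 7 of the 10 genes, 12 promoters in all. Capitals mark a match on either strand. Dkk1 (chr19:30549447-30549746, minus strand) holds CTTTGAA, 117 bases before the RefSeq start. Wnt11 (chr7:98834862-98835161, plus strand) holds CTTTGAT on the other strand, 51 bases before the start. Axin2 (chr11:108920099-108920398, plus strand) is shown as an example of the response genes, as Axin2, Lef1 and Rnf43 had no match in any promoter of the table.
Dkk1: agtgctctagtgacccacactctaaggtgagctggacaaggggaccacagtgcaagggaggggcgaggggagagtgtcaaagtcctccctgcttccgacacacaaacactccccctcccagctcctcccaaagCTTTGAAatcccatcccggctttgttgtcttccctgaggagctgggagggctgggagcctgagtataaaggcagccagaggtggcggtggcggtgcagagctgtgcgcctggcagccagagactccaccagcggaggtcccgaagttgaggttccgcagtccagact
Wnt11: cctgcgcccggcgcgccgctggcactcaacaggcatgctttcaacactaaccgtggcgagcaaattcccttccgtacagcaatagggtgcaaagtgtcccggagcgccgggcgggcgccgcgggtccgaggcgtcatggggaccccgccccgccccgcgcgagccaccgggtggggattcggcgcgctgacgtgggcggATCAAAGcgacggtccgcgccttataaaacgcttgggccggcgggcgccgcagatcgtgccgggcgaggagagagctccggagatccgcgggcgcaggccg
Axin2: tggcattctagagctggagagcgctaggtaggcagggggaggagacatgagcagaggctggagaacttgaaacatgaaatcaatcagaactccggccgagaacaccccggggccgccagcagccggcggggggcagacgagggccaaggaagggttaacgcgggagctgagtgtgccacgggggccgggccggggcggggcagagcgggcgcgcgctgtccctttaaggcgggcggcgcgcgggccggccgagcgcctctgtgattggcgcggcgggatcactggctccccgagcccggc
These 2 were the only matches among the 12 promoters. Over all 32851 RefSeq promoters of the table, 2842 (8.65%) held a match. A match is a description of letters and not a bound site.

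The genes lie as follows in GENCODE M21 on GRCm38. Wnt3 spans chr11:103774150-103817957, Wnt6 chr1:74771892-74785322, Wnt7b chr15:85535437-85582473 and Wnt11 chr7:98835112-98855195. Rspo3 spans chr10:29452416-29535867, Dkk1 chr19:30545863-30549665 and Sfrp1 chr8:23411502-23449632. Axin2 spans chr11:108920349-108950783, Lef1 chr3:131110471-131224356 and Rnf43 chr11:87662722-87735539. Rnf43 overlaps 1110028F11Rik on its own strand. Wnt6, Wnt7b, Rspo3, Axin2 and Lef1 overlap an annotated gene on the opposite strand, and the use of strand in counting was not given in the sources used here.

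Among the ligands, each state had its own pattern: Wnt6 and Wnt7b were high in TE, Wnt11 was high in the endoderm states, and Wnt3 was lower in the endoderm states than in epiblast. In TE, Wnt6 reached 52.5 CPM in Type I, 32.1 in Type II and 24.6 in Type III, the order used for all values by library. Visceral endoderm had 0.908, 0.431 and 0 CPM, early PrE 2.45, 4.68 and 0.223 CPM, and epiblast 1.02, 0.563 and 0.673 CPM. The lowest TE library lay far above the highest library of the other 3 states, while endoderm and epiblast ranges overlapped. TE over epiblast was 5.39 on the log2 scale, or 42.0-fold (SE 0.33, edgeR adjusted p = 4.49e-09), and TE over visceral endoderm gave 5.85 (SE 0.35, edgeR adjusted p = 1.35e-09). Early PrE over epiblast was also called (1.87, SE 0.46, edgeR adjusted p = 0.00198), but it was lost without Type II (0.78, adjusted p = 0.154), with DESeq2 and with doubled state thresholds. In the early PrE of Type II, 5 barcodes held 76.7% of the Wnt6 UMIs and a single barcode held 43 of 73.

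Wnt7b, a ligand that the mouse placenta needs, reached 9.60, 19.8 and 26.8 CPM in TE. Visceral endoderm had 1.05, 0.784 and 0 CPM, early PrE 1.63, 3.14 and 2.00 CPM, and epiblast 0.509, 0.338 and 0.269 CPM. TE stood apart from every other state in all 3 libraries, and early PrE came next. TE over epiblast was 5.10 on the log2 scale (34.2-fold, SE 0.37, edgeR adjusted p = 2.25e-08), and early PrE over epiblast was 2.40 (SE 0.48, edgeR adjusted p = 0.00037). After each barcode was thinned to 10000 UMIs, Wnt7b had a UMI in 7.69, 12.2 and 20.8% of TE barcodes, against 0.570, 0.172 and 0.826% of epiblast barcodes. Without thinning the TE shares were 24.5, 34.2 and 47.2%, at median depths of 49219, 41852 and 81527 UMIs, and the epiblast shares were 2.56, 1.55 and 1.65%, at 57747, 46589 and 59991 UMIs. Wnt6 had a UMI in 45.2, 29.9 and 37.5% of TE barcodes, against 4.56, 1.89 and 2.48% of epiblast barcodes. After thinning the Wnt6 shares were 24.5, 17.6 and 15.3% in TE, against 1.42% in Type I epiblast and 0 of 582 barcodes in Type II epiblast.

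Wnt11, a ligand known mostly for β-catenin-independent signalling in cell movement, was highest in the endoderm states. It had 0.475, 0.468 and 0.642 CPM in TE, 10.3, 10.3 and 17.7 CPM in visceral endoderm and 21.5, 16.3 and 20.04 CPM in early PrE. Epiblast had 0.509, 0.375 and 0.808 CPM. No endoderm library overlapped an epiblast or TE library. Visceral endoderm over epiblast was 4.32 on the log2 scale (20.02-fold, SE 0.22, edgeR adjusted p = 1.53e-10), and early PrE over epiblast was 5.08 (33.7-fold, SE 0.21, edgeR adjusted p = 2.25e-11). Between the endoderm states Wnt11 fell by 0.75 on the log2 scale in visceral endoderm relative to early PrE (SE 0.14, edgeR adjusted p = 0.00112). That call was lost without Type I (-0.51, adjusted p = 0.114) and without Type II (-0.75, adjusted p = 0.0804), and the 2 states' ranges overlapped.

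Wnt3 had 7.98, 6.23 and 2.41 CPM in TE, 1.05, 1.02 and 0.572 CPM in visceral endoderm and 0.679, 0.834 and 0 CPM in early PrE. Epiblast had 4.43, 5.18 and 3.50 CPM. TE was above epiblast in 2 of 3 libraries, and the difference was 0.05 on the log2 scale (SE 0.24, edgeR adjusted p = 0.875). Every endoderm library lay below every epiblast library. Wnt3 was lower in both endoderm states relative to epiblast, at -2.46 in visceral endoderm (SE 0.29, edgeR adjusted p = 1.78e-06) and -3.03 in early PrE (SE 0.34, edgeR adjusted p = 1.21e-06).

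**Figure D1:**
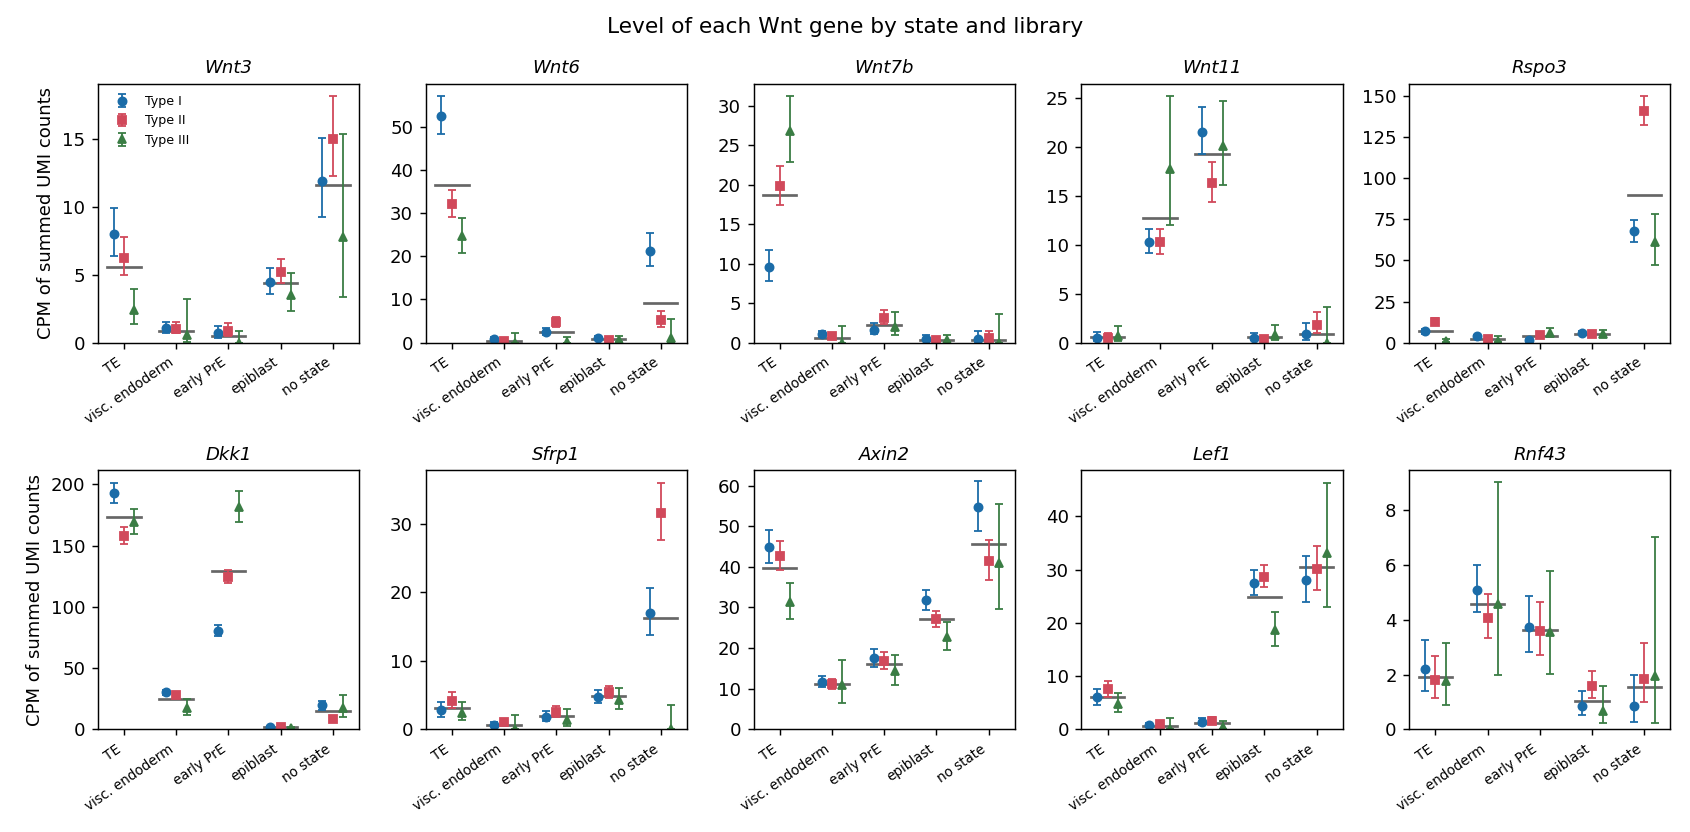
Level of each gene in CPM (vertical axis, linear, its own scale in each panel) by state (horizontal axis), with 1 point per library and bars for the 95% Poisson interval of the summed UMIs. Wnt6 and Wnt7b stand highest in TE, Wnt11 in the endoderm states, Rspo3 in barcodes without a state, and Lef1 is low in both endoderm states.

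Rspo3 did not follow the 4 states. It had 6.75, 12.6 and 0.803 CPM in TE, 3.74, 2.00 and 1.14 CPM in visceral endoderm and 1.63, 4.30 and 6.01 CPM in early PrE. Epiblast had 6.00, 4.99 and 5.39 CPM. The libraries did not order the states alike, and few barcodes carried the gene: the 5 highest barcodes held 71.8, 63.6 and 100% of the TE UMIs and 69.5, 67.7 and 100% of the epiblast UMIs. Visceral endoderm over epiblast was called at -1.19 (SE 0.52, edgeR adjusted p = 0.0492), but the call was lost in 6 of 13 alternatives, among them leaving out Type II (-1.06, adjusted p = 0.199), and the value turned to 1.29 (adjusted p = 0.0566) when the state thresholds were doubled. TE over epiblast was 0.10 (SE 0.47, edgeR adjusted p = 0.878), and it was -0.84 without Type II. Early PrE over epiblast was -0.83 (SE 0.53, edgeR adjusted p = 0.177), and it passed with barcodes of 1 library only (-1.16, adjusted p = 0.00277) and without Type III (-1.02, adjusted p = 0.0348). The streak marker sum (T, Mixl1, Fgf8, Evx1 and Mesp1) was 24.9, 46.8 and 2.57 CPM in TE and 35.1, 35.4 and 33.0 CPM in epiblast. Its part in the Rspo3 values was not tested. Of the epiblast Rspo3 UMIs, 81 of 118, 104 of 133 and 38 of 40 lay in the streak barcodes defined below. The naive epiblast barcodes defined below had 2.09, 1.246 and 0.301 CPM, under the visceral endoderm level in every library. The call of visceral endoderm below epiblast thus does not hold as an order against naive barcodes, a comparison that was not tested.

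Dkk1 was high in TE and early PrE. It reached 193, 158 and 169 CPM in TE, 30.2, 27.8 and 17.2 CPM in visceral endoderm and 80.4, 125 and 182 CPM in early PrE. Epiblast had 1.93, 2.18 and 0.942 CPM. Every library of the other 3 states was above every epiblast library, while the ranges of TE and early PrE overlapped. Over epiblast, Dkk1 was higher by 6.16 on the log2 scale in TE (71.7-fold, SE 0.31, edgeR adjusted p = 6.4e-10), by 5.84 in early PrE (57.3-fold, SE 0.31, edgeR adjusted p = 3.61e-10) and by 3.72 in visceral endoderm (13.2-fold, SE 0.34, edgeR adjusted p = 9.67e-08). Dkk1 fell by 2.12 in visceral endoderm relative to early PrE (SE 0.23, edgeR adjusted p = 1.41e-05).

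The Dkk1 UMIs were unevenly spread over barcodes. In thinned barcodes a Dkk1 UMI was seen in 38.9, 38.5 and 41.7% of TE, 23.0, 17.6 and 15.8% of visceral endoderm and 43.2, 45.2 and 46.7% of early PrE, against 1.71, 2.23 and 0.826% of epiblast. The early PrE share was above that of TE in every library, a difference that was not tested. Unthinned shares were 56.3, 53.2 and 61.1% in TE and 76.4, 72.1 and 77.8% in early PrE, against 8.83, 6.36 and 5.79% in epiblast. Median depths were 49219, 41852 and 81527 UMIs in TE and 49842, 37918 and 80842 UMIs in early PrE, against 57747, 46589 and 59991 UMIs in epiblast. The 5 highest barcodes held 31.7, 27.6 and 47.9% of the TE UMIs, and 1 early PrE barcode of Type II held 302 of 1943. Wnt11 and Dkk1 were both found in 110 of 271, 94 of 376 and 21 of 45 early PrE barcodes. Detection of each gene independent of the other would give 97.01, 92.26 and 19.44 barcodes, and the difference was not tested.

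Sfrp1 was low everywhere. It had 2.76, 4.13 and 2.41 CPM in TE, 0.690, 1.06 and 0 CPM in visceral endoderm and 1.83, 2.50 and 1.34 CPM in early PrE, against 4.73, 5.40 and 4.31 CPM in epiblast. The 4 states did not overlap except TE with early PrE. Relative to epiblast, Sfrp1 fell by 0.94 on the log2 scale in TE (SE 0.21, edgeR adjusted p = 0.00147), by 1.46 in early PrE (SE 0.23, edgeR adjusted p = 3.43e-05) and by 2.78 in visceral endoderm (SE 0.25, edgeR adjusted p = 7.33e-08).

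Axin2, a scaffold of the destruction complex and a direct Wnt target, was measurable in all states and was lower in endoderm. It had 44.8, 42.7 and 31.3 CPM in TE, 11.7, 11.1 and 10.9 CPM in visceral endoderm and 17.5, 16.8 and 14.3 CPM in early PrE. Epiblast had 31.8, 27.1 and 22.8 CPM. Endoderm libraries all lay below epiblast libraries, while TE and epiblast ranges overlapped by less than 1 CPM. Axin2 fell by 1.503 on the log2 scale in visceral endoderm (SE 0.09, edgeR adjusted p = 1.32e-09) and by 0.92 in early PrE (SE 0.09, edgeR adjusted p = 3.36e-07) relative to epiblast. TE over epiblast was 0.23 (1.17-fold, SE 0.08, edgeR adjusted p = 0.0268), higher in 3 of 3 libraries. The TE call was lost in 8 of 13 alternatives, among them without Type I (0.22, adjusted p = 0.167), without Type II (0.15, adjusted p = 0.438) and with barcodes of 1 library only (0.20, adjusted p = 0.134), and with plain library totals it was 0.55.

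Lef1, the DNA-binding partner of β-catenin, was an epiblast gene within the 4 states. It had 5.99, 7.48 and 4.82 CPM in TE, 0.727, 1.06 and 0 CPM in visceral endoderm and 1.36, 1.60 and 0.445 CPM in early PrE, against 27.5, 28.7 and 18.6 CPM in epiblast. Epiblast stood above TE, and TE above early PrE, in every library, and the 2 endoderm states overlapped. Lef1 fell by 5.17 on the log2 scale in visceral endoderm (SE 0.18, edgeR adjusted p = 2.29e-12), by 4.48 in early PrE (SE 0.17, edgeR adjusted p = 1.2e-11) and by 2.35 in TE (SE 0.13, edgeR adjusted p = 2.25e-09). Lef1 and Axin2 thus differed in TE: Lef1 was lower there than in epiblast in 3 of 3 libraries, and Axin2 was higher in 3 of 3.

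Rnf43, the ubiquitin ligase that removes Frizzled from the cell surface, ran the other way at low counts. It had 2.19, 1.79 and 1.77 CPM in TE, 5.09, 4.08 and 4.58 CPM in visceral endoderm, 3.74, 3.59 and 3.56 CPM in early PrE and 0.865, 1.58 and 0.673 CPM in epiblast. All 4 ranges were apart. Over epiblast it was higher by 1.81 on the log2 scale in visceral endoderm (3.50-fold, SE 0.26, edgeR adjusted p = 1.27e-05) and by 1.49 in early PrE (2.82-fold, SE 0.27, edgeR adjusted p = 0.000155). TE over epiblast was 0.43 (SE 0.31, edgeR adjusted p = 0.243), and with plain library totals it was 0.75 (adjusted p = 0.0449).

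Counted over the 10 members, 8 passed an adjusted p of 0.05 in visceral endoderm over epiblast (3 higher, 5 lower), where 75.7% of all 13616 genes tested passed, 38.0% higher and 37.7% lower. In early PrE over epiblast 9 passed (5 higher, 4 lower), against 70.6% of all genes, 36.1% higher and 34.5% lower. In TE over epiblast 6 passed (4 higher, 2 lower), against 58.2% of all genes, 28.0% higher and 30.2% lower. All 10 passed in TE over visceral endoderm (8 higher, 2 lower), where 65.6% of all genes did, 32.6% higher and 33.0% lower. Without Type II 9 passed, as Rspo3 was then 0.21 (adjusted p = 0.825). In visceral endoderm over early PrE 6 passed, all lower, against 22.7% of all genes, 11.8% higher and 10.9% lower. In 4 of these comparisons most genes passed, so a count of members near that share says little about the members. The members' median log2 difference was -0.83, 0.33, 0.16, 2.14 and -0.72 in these comparisons in turn, beside medians of 0.00, 0.02, -0.02, 0.01 and -0.01 over all genes. As the members were chosen with earlier results of these data known, these counts and medians are descriptions and no test of the set. The 6 members lower in visceral endoderm than in early PrE were Wnt6, Wnt7b, Wnt11, Dkk1, Sfrp1 and Axin2. Without Type II only Dkk1 passed there (-2.18, adjusted p = 0.00286), and without Type I 4 members did. The Wnt7b call in that comparison (-1.28, SE 0.41, edgeR adjusted p = 0.0366) was lost in 7 of 13 alternatives. TMM scaling moved TE over epiblast by -0.33 relative to plain totals and the visceral endoderm and early PrE differences from epiblast by -0.16 each.

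**Figure D2:**
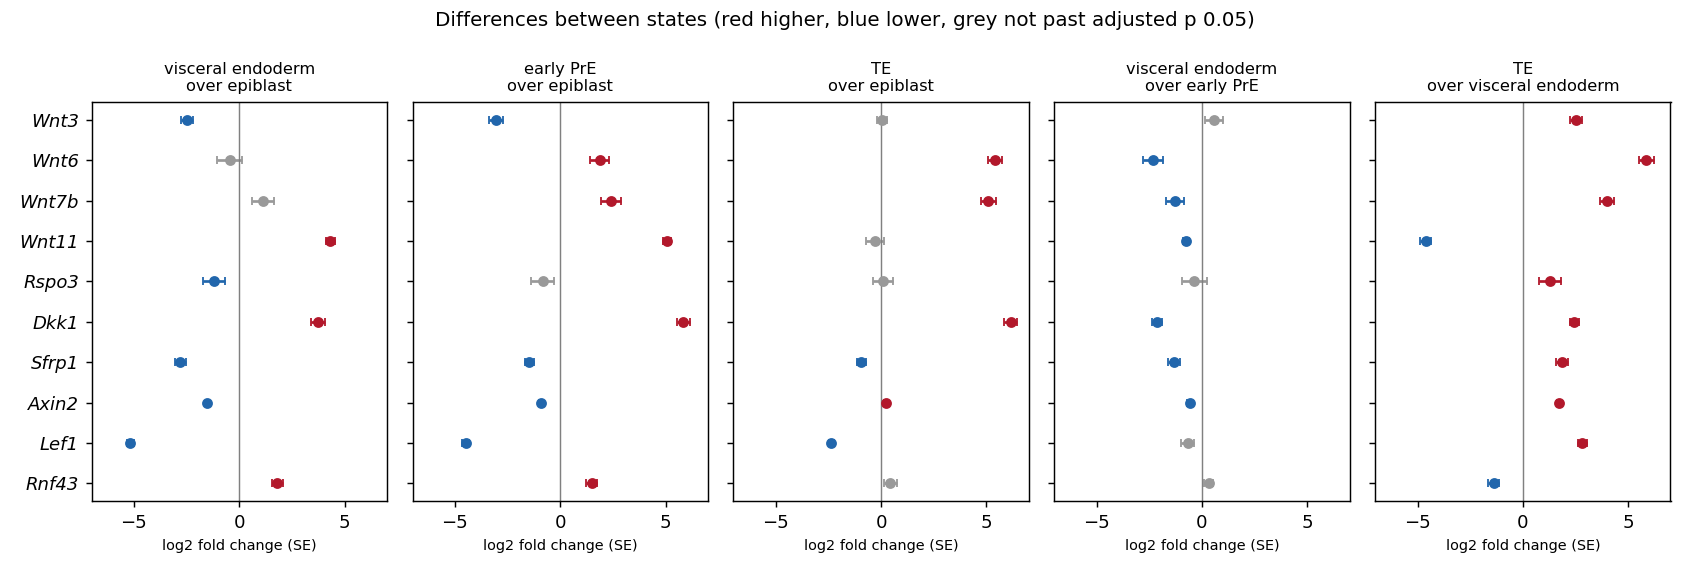
Log2 fold change of each member (horizontal axis, bars are SE) in the 5 comparisons between states, red where higher and blue where lower at an adjusted p under 0.05, grey where not called. Dkk1 reaches 6.16 in TE over epiblast, and Lef1 reaches -5.17 in visceral endoderm over epiblast.

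Within epiblast, Wnt3 and Rspo3 were high in a small set of barcodes. Epiblast barcodes with T, Mixl1 and Fgf8 summing to at least 100 CPM were called streak (11, 30 and 4 barcodes in Types I, II and III). Of the rest, those with more Otx2, Pou3f1 and Fgf5 than Klf2, Zfp42 and Nanog were called primed (37, 78 and 6), and the others naive (303, 474 and 111). Type III streak and primed sums held under 10 barcodes and were left out of the fit, so the tests rest on Types I and II.

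Rspo3 had 106, 87.8 and 169 CPM in streak barcodes, against 2.09, 1.246 and 0.301 CPM in naive barcodes. Streak lay above naive in 3 of 3 libraries, also in the one left out of the test. The difference was 5.77 on the log2 scale (54.7-fold, SE 0.24, edgeR adjusted p = 1.63e-11). Wnt3 had 14.4, 45.6 and 35.6 CPM in streak barcodes, against 3.71, 2.31 and 2.10 CPM in naive ones (3.31, SE 0.41, edgeR adjusted p = 1.32e-05). Sfrp1 had 18.3, 11.8 and 17.8 CPM in streak barcodes, against 4.01, 5.03 and 4.21 CPM in naive ones (1.55, SE 0.38, edgeR adjusted p = 0.00821). All 3 genes were higher in streak in every library. Without thinning, Wnt3 had a UMI in 54.5 and 56.7% of streak barcodes in Types I and II, against 10.6 and 6.33% of naive barcodes. For Rspo3 the shares were 54.5 and 43.3% in streak, against 4.95 and 3.59% in naive barcodes. After thinning the Wnt3 shares were 9.09% (1 of 11 barcodes) and 26.7% in streak, against 2.64 and 1.48% in naive barcodes. The thinned Rspo3 shares were 45.5 and 33.3% in streak, against 1.65 and 1.27%. The streak sums rest on few barcodes, however, and a few of these held most of the Rspo3, Wnt3 and Sfrp1 UMIs. The 5 highest barcodes held 96.3 and 83.7% of the streak Rspo3 UMIs in Types I and II. For Wnt3 they held 90.9% of 11 UMIs and 55.6% of 54. For Sfrp1, a single barcode held 13 of 14 streak UMIs in Type I and 10 of 14 in Type II. Sfrp1 had a UMI in 18.2 and 16.7% of streak barcodes in these libraries, against 15.5 and 15.0% of naive barcodes.

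The response genes did not pass the test between streak and naive barcodes. Axin2 had 41.9, 27.9 and 26.7 CPM in streak and 30.9, 26.0 and 22.5 CPM in naive barcodes (0.15, SE 0.20, edgeR adjusted p = 0.706). Lef1 had 34.0, 26.2 and 22.2 CPM in streak and 24.8, 26.0 and 19.2 CPM in naive barcodes (0.10, SE 0.21, edgeR adjusted p = 0.835). In all, 3 of the 5 members tested passed, all higher, where 15.2% of 10667 genes passed, 7.43% higher and 7.80% lower. The direction of this count is partly set by the filter on low counts, which Rspo3 passed through its streak level. Wnt6, Wnt7b, Wnt11, Dkk1 and Rnf43 were too low for the filter, so a fall of these genes in streak could not enter the count. Wnt7b and Rnf43 had 0 UMIs in the 45 streak barcodes, which allows up to 6.67% of barcodes with a UMI at this depth and 1.38 CPM over the pooled streak barcodes. It does not limit the share of barcodes that express them. Rnf43 had 1.18 CPM over the pooled naive barcodes, so a difference was not detectable at this depth.

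Primed barcodes had more Lef1. It had 46.1, 44.6 and 9.09 CPM in primed barcodes, the last from 6 barcodes, against 24.8, 26.0 and 19.2 CPM in naive ones. Primed was higher in 2 of 3 libraries. The test gave 0.72 (1.65-fold, SE 0.13, edgeR adjusted p = 0.00137), and DESeq2 did not call it. Lef1 was the only called member of the 5 tested, where 11.4% of all genes passed, 5.36% higher and 6.07% lower. Wnt3 had 6.46, 8.93 and 7.27 CPM in primed barcodes, against 3.71, 2.31 and 2.10 CPM in naive ones, and missed the threshold (1.29, SE 0.41, edgeR adjusted p = 0.052). It passed in 7 of 10 alternatives, among them barcodes of 1 library only (1.21, adjusted p = 0.0454). Rspo3 had 0.922, 0.525 and 0 CPM in primed barcodes.

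**Figure D3:**
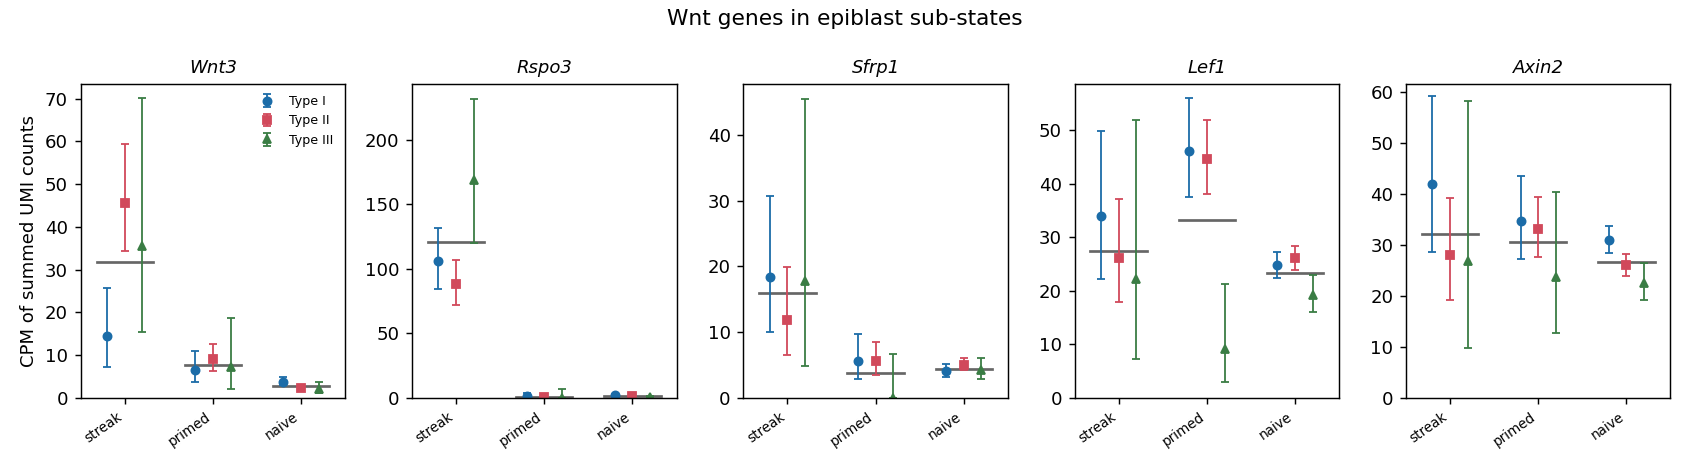
CPM (vertical axis) of Wnt genes in streak, primed and naive epiblast barcodes (horizontal axis), 1 point per library with the 95% Poisson interval of the summed UMIs. Rspo3 stands at 87.8 to 169 CPM in streak barcodes and at 2.09 CPM or less in naive ones.

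The barcodes without a state also carried Rspo3, Wnt3 and Sfrp1. Rspo3 had 67.9, 141 and 61.4 CPM there, Wnt3 had 11.9, 15.0 and 7.80 CPM, and Sfrp1 had 17.0, 31.6 and 0 CPM. Rspo3 and Wnt3 were above their epiblast level in every library, and Sfrp1 in Types I and II. The streak gene T had 30.2, 80.4 and 42.9 CPM in the barcodes without a state, against 15.1, 14.0 and 13.6 CPM in epiblast, and Fgf8 had 58.1, 178 and 60.4 CPM, against 10.5, 13.9 and 11.2 CPM. Rspo3 and Sfrp1 were found together in 19 of 132 Type I and 34 of 193 Type II barcodes without a state. Independent detection would give 9.5 and 17.25 barcodes. Axin2 (54.7, 41.5 and 40.9 CPM) and Lef1 (28.0, 30.1 and 33.1 CPM) were also present. Wnt6 (21.2, 5.24 and 0.975 CPM, the last from 1 UMI) and Dkk1 (19.5, 8.49 and 17.5 CPM) were above their epiblast level in every library. The sum of the 2-cell-like genes Zscan4c, Zscan4d and Usp17lc was 23.3, 1.42 and 47.8 CPM, against 0.204, 0.150 and 0.135 CPM in epiblast. Streak genes were thus not the only markers in this set. Type III had 15 such barcodes, and no test was made on this set, which is defined by what it lacks.

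TE barcodes differed among themselves in both TE ligands. TE was divided, after the data were seen, into barcodes with more Sfn and Anxa1 (142, 198 and 54) and those with more Rhox6 and Rhox9 (66, 80 and 18). Wnt6 had 63.0, 37.3 and 29.1 CPM in Sfn and Anxa1 barcodes and 29.5, 17.9 and 5.83 CPM in Rhox barcodes. Wnt7b ran the other way, with 7.87, 16.0 and 18.3 CPM in Sfn and Anxa1 barcodes and 13.4, 30.2 and 62.4 CPM in Rhox barcodes. Each order held in 3 of 3 libraries, but the Rhox sums rest on few barcodes. There the 5 highest barcodes held 73.2, 62.3 and 85.7% of the Wnt6 UMIs, and Type III had 7 such UMIs in all. For Wnt7b the 5 highest held 43.2, 44.7 and 82.7%. In Type I the Wnt7b counting intervals of the parts overlapped (5.96 to 10.2 and 9.73 to 18.0 CPM). Axin2 had 55.0, 50.1 and 33.4 CPM in Sfn and Anxa1 barcodes and 22.5, 22.3 and 22.5 CPM in Rhox barcodes, below its epiblast level of 31.8, 27.1 and 22.8 CPM, with little between them in Type III. Dkk1 had 208, 151 and 198 CPM in Sfn and Anxa1 barcodes and 159, 176 and 50.8 CPM in Rhox barcodes, so its order differed between libraries. These are values with no test. Wnt6 and Wnt7b were both found in 23 of 208, 24 of 278 and 11 of 72 TE barcodes. Independent detection would give 23.05, 28.36 and 12.75 barcodes, so they were not found together more often than that.

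**Figure D4:**
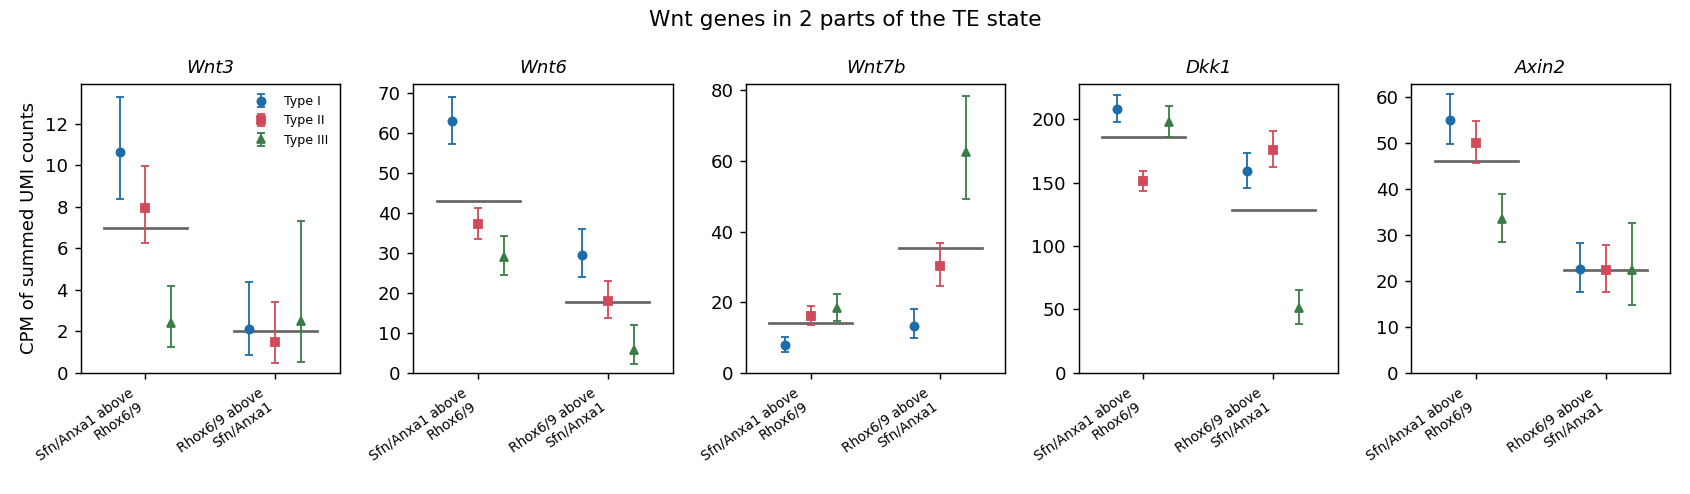
CPM (vertical axis) of Wnt genes in TE barcodes with more Sfn and Anxa1 and in those with more Rhox6 and Rhox9 (horizontal axis), 1 point per library with the 95% Poisson interval. Wnt6 and Axin2 stand higher in the Sfn and Anxa1 barcodes of every library, and Wnt7b in the Rhox barcodes.

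Between the types, few member levels were high enough to compare within a state. With 1 library per type there is no test, and a difference was named when it reached 2-fold on CPM + 1 for a gene that had 10 CPM or more in 1 library of the pair. Of the 13 values of Type II over Type I that could be compared, 0 reached 2-fold, where 0.0536, 0.284, 0.278 and 0.0447% of all genes compared did in visceral endoderm, early PrE, TE and epiblast. Of the 12 values of Type III over Type I, which belong to Wnt6, Wnt7b, Wnt11, Dkk1, Axin2 and Lef1, 3 did, where 1.76, 1.95, 1.73 and 0.364% of all genes compared did in these states. Wnt6 in TE was 24.6 CPM in Type III and 52.5 CPM in Type I (-1.07 on the log2 scale). Wnt7b in TE was 26.8 CPM in Type III and 9.60 CPM in Type I (1.39). The 5 highest barcodes held 60.1% of the Type III Wnt6 UMIs. Dkk1 in early PrE was 182 CPM in Type III and 80.4 CPM in Type I (1.17). In the same barcodes the sum of 10 TE markers was 218 CPM in Type III and 95.02 CPM in Type I, with Sfn at 48.3 and 4.89 CPM and Anxa1 at 70.1 and 6.38 CPM. The 5 highest barcodes held 61.0% of the Type III Dkk1 UMIs. The part of the TE markers in the Dkk1 value was not tested.

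Other genes of the pathway were read from a list of 75 genes, 57 of them tested. The list was also chosen with earlier results of these data known, so its counts are descriptions. In visceral endoderm over epiblast 21 were higher and 25 lower, in early PrE over epiblast 19 and 24, and in TE over epiblast 23 and 15. In visceral endoderm over early PrE 11 were higher and 3 lower, and in TE over visceral endoderm 32 and 15. Of 43 tested, 12 were higher and 2 lower in streak than in naive epiblast. The 12 include T, which the streak rule used, and without it 11 of 42 were higher. Of the 43, 10 were higher and 1 lower in primed than in naive epiblast. Over all genes, 38.0% were higher and 37.7% lower in visceral endoderm over epiblast. The shares were 36.1 and 34.5% in early PrE over epiblast and 28.0 and 30.2% in TE over epiblast. They were 11.8 and 10.9% in visceral endoderm over early PrE and 32.6 and 33.0% in TE over visceral endoderm. Streak over naive had 7.43 and 7.80%, and primed over naive 5.36 and 6.07%. In the order of the counts, the median log2 differences of the list were -0.14, -0.37, 0.32, 0.06, 0.66, 0.31 and 0.31.

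The list members at the ends of each comparison added detail on antagonists, receptors and nuclear partners. Frzb, a secreted Frizzled-related antagonist, averaged 8.19 ± 2.21 CPM in visceral endoderm and 0.237 ± 0.044 CPM in epiblast (SD, n = 3 libraries; log2 5.10, edgeR adjusted p = 2.32e-09). Tcf7l2, a DNA-binding partner of β-catenin, averaged 86.7 ± 13.1 CPM in visceral endoderm and 6.12 ± 2.18 CPM in epiblast (log2 3.56, edgeR adjusted p = 2.19e-11), so it ran opposite to Lef1. The ligand Wnt8a averaged 0.036 ± 0.063 CPM in visceral endoderm and 3.01 ± 1.04 CPM in epiblast, and T averaged 0.371 ± 0.403 CPM and 14.2 ± 0.786 CPM in these states. In TE, the R-spondin receptor Lgr5 averaged 8.87 ± 3.93 CPM, against 0.412 ± 0.321 CPM in epiblast (log2 4.01, edgeR adjusted p = 6.65e-08). Ascl2, a trophoblast transcription factor and Wnt target, averaged 45.9 ± 34.2 CPM in TE, against 2.57 ± 0.195 CPM in epiblast. Sfrp5 had 0 UMIs in TE of all libraries, against 2.73 ± 1.60 CPM in visceral endoderm.

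Between the endoderm states Sp5, a direct Wnt target, averaged 25.7 ± 13.001 CPM in visceral endoderm and 5.37 ± 3.22 CPM in early PrE (log2 1.73, edgeR adjusted p = 0.00122), the opposite direction to Axin2. Rspo1 averaged 6.70 ± 1.28 CPM in visceral endoderm and 1.98 ± 0.787 CPM in early PrE (log2 1.49, edgeR adjusted p = 0.000967). In streak over naive epiblast Cdx2 had a log2 difference of 4.37 (edgeR adjusted p = 3.03e-08). The receptor Fzd7 fell by 1.49 there (edgeR adjusted p = 0.012), and Porcn, the acyltransferase that Wnt secretion needs, fell by 1.16 (edgeR adjusted p = 0.0112). In primed over naive epiblast the receptor Fzd2 rose by 1.61 (edgeR adjusted p = 4.59e-05) and Wnt8a by 1.56 (edgeR adjusted p = 0.00541), and Porcn fell by 0.58 (edgeR adjusted p = 0.0425).

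Genes whose pattern over the 12 sums of library and state was most like a member were found by Pearson's r of log2(CPM + 1) among 7161 genes. The 12 sums share libraries, and the values are descriptions. Ccnd1 was most like Lef1 (r = 0.99), Gask1b and Sox7 were most like Wnt11 (r = 0.99 each), and Stard4 was most like Rnf43 (r = 0.98). Epc2 was most like Wnt6 (r = 0.98), Stam most like Wnt7b (r = 0.98), Phf14 most like Dkk1 (r = 0.98) and Hmgn5 most like Axin2 (r = 0.99). Naca was most like Sfrp1 (r = 0.98) and Rbm26 most like Wnt3 (r = 0.97). The best match of Rspo3, Las1l, reached r = 0.83.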

How the data were processed

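Droplet single-cell 3' RNA libraries of 3 blastoid types were read from the deposited UMI count matrices, which hold whole-number counts per gene and barcode and name Cell Ranger version 6.0.1 as their source, per the file headers, with mm10 as build, per the submitters' processing notes. The rule for calling cells was not given in the sources used here. From these counts, barcodes of 10000 UMIs or more with a mitochondrial share of no more than 20% were kept, assigned to states by the thresholds given above, and summed per library and state where at least 10 barcodes were present.

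Sums were tested with edgeR 4.0.16 (R 4.3.3), using filterByExpr, TMM scaling, library as a block and the quasi-likelihood test, with Benjamini-Hochberg adjustment over all genes tested (13616 for the states, 10667 for the epiblast sub-states). The 5 state comparisons share 1 fit, and several share their epiblast or visceral endoderm sums. SE is the log2 fold change divided by the square root of F. Poisson intervals of sums and binomial intervals of shares are 95% and exact, the floor is 3 counts, and both cover counting error only. Shares were also computed after thinning every barcode to 10000 UMIs. No doublets were removed; removal of the highest Scrublet scores (scanpy 1.11.5; 77, 148 and 5 barcodes) was an alternative. Tested on simulated counts, the procedure found 34.4, 87.7 and 100.0% of genes changed 1.5-, 2- and 3-fold in TE over epiblast (13271 genes), and 6.1, 43.9 and 77.3% in streak over naive (10698 genes). The simulation changed 200 genes, with a dispersion (spread beyond counting error) of 0.02 and no library effect. The fits to the data had common dispersions of 0.00558 (states) and 0.00472 (sub-states). The simulated shares therefore do not give the power of the tests here.

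Alternatives were DESeq2 1.42.0 and its size factors, no filter on low counts, doubled state thresholds, at least 20000 UMIs, at most 10% mitochondrial UMIs, no block, leaving out each library, barcodes of 1 library only and plain library totals, the last pair chosen after the data were seen. The 10 members, the pathway list and the naming rule were chosen with earlier results of these data known. The rule names all members, and from the pathway list up to 4 genes per comparison, the 2 highest and 2 lowest log2 fold changes among called genes that moved alike in every library. Promoters came from RefSeq and gene positions from GENCODE M21.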

Additional observations from a re-analysis of the deposited data

Results flagged for a closer look

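Rspo3 went in opposite directions in different libraries, and the difference between the types was not tested. As a log2 ratio of CPM with a 95% counting interval that leaves out 0, TE over epiblast was 1.34 in Type II and -2.75 in Type III. Visceral endoderm over early PrE was 1.20 in Type I, -1.10 in Type II and -2.39 in Type III. The 5 highest barcodes held at least 33.3% of the Rspo3 UMIs in each of these sums.

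Barcodes with fewer than 10000 UMIs, which entered no comparison, also held UMIs of every member. The levels were taken over 12904 of these barcodes, which are not all of them. Levels there were 1.36 CPM for Wnt3, 6.17 CPM for Wnt6, 3.00 CPM for Wnt7b, 4.35 CPM for Wnt11 and 8.24 CPM for Rspo3. Dkk1 had 42.4 CPM, Sfrp1 2.00 CPM, Axin2 23.1 CPM, Lef1 9.81 CPM and Rnf43 2.35 CPM. Each exceeded the level of 0.107 CPM that a count of 0 allows there.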

How the results depend on the processing

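Over the members' log2 fold changes under all alternatives, 687 kept their direction and side of the threshold, 37 lost the call, 15 gained it and 11 changed sign. Of the 43 called values, 33 kept the call in every alternative that could be run. States were compared within library, with library as a block in the model. Without the block, 54 of 60 member values kept their call, 5 lost it and 1 gained it. Between the types there was nothing to pair, as each has 1 library.

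With doubled state thresholds Rspo3 turned to 1.29 in visceral endoderm over epiblast, 1.44 in early PrE over epiblast (adjusted p = 0.0362) and -0.21 in TE over visceral endoderm, Wnt11 to 0.60 in TE over epiblast and Lef1 to 0.35 in visceral endoderm over early PrE. In TE over epiblast, Wnt3 was -0.0696 and Rspo3 -0.23 with DESeq2, and Wnt11 was 0.0273 with plain totals. Leaving out 1 library there gave -0.35 (without Type I), -0.0002 (without Type II) and 0.23 (without Type III) for Wnt3, and -0.84 (without Type II) to 0.52 (without Type III) for Rspo3. The cause was not tested.

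Leaving out 1 library gave 728 to 3192 genes called in visceral endoderm over early PrE (3087 with all) and 1 to 6 members. DESeq2 called 826 genes in streak over naive (edgeR 1625) and 322 in primed over naive (edgeR 1220), where it called 0 members. In that comparison 2 members passed with no filter, at least 20000 UMIs, at most 10% mitochondrial UMIs, Scrublet removal, no block, barcodes of 1 library only and plain totals. With doubled thresholds no library kept 10 streak barcodes, so the joint fit of the sub-states could not be run. Without Type I or Type II it could not be run either, as no residual degrees of freedom were left. Without thinning, the median share of barcodes with a UMI was 10.8%, and 97 of 120 shares lay outside the interval of the thinned value. Averaging CPM over barcodes gave a median level of 3.69 CPM, with 11 of 120 levels outside their counting interval. Depth limits Wnt6, Wnt7b, Wnt11, Dkk1 and Rnf43 in the streak and primed barcodes, where they were too low to test.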
